A study of Arabidopsis thaliana with 27 samples.

Results

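Zygotes of the cross with a Landsberg erecta (Ler) mother and a Columbia (Col) father, 24 hours after pollination (LZy24), were compared with zygotes of the reverse cross, with a Col mother and a Ler father (CZy24), at the same hour. Ler and Col are inbred accessions of Arabidopsis thaliana, and both kinds of zygote carry 1 genome of each, so that the crosses differ in which parent gave the egg cell, with its cytoplasm and organelles, and which gave the sperm. The libraries were chosen by their labels alone, 3 LZy24 and 3 CZy24 libraries, or 6 of the 27 in the series. The same crosses at 14 hours (LZy14 and CZy14, 3 libraries each) and elongated Col zygotes at 24 hours (Zy24, 3 libraries) served as further comparisons, and Col egg cells (EC), Col zygotes at 14 hours (Zy14) and Col 1-cell embryos (1C), 3 libraries each, as background. The labels put the mother first in each cross with sex signs, and name no transgene, mutant allele or treatment. All plants were grown in a greenhouse under long days at 22 °C. Neither the number of zygotes in a library nor whether replicates came from separate plants is given in the sources used here, so p-values measure the spread between these libraries, which may be technical.

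In Arabidopsis the zygote elongates after fertilization and then divides unequally into a small apical cell, which forms most of the embryo, and a large basal cell, which forms the suspensor. The first hours rely on RNA and protein carried over from the egg cell and, in part, from the sperm, and transcription from the zygote's own genome takes over from there. A mitogen-activated protein kinase cascade headed by YDA, which the paternally supplied kinase SSP activates, and the transcription factors RKD4, WRKY2, HDG11, WOX8 and WOX9 are known to direct elongation and the unequal division. Reciprocal crosses between accessions are used to ask how the contribution of each parent shapes this stage.

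Levels are given as the FPKM that the authors deposited, that is, fragments scaled to transcript length and library size, and a gene missing from a library's table is listed at 0. LZy24 libraries held 14809, 14997 and 15237 genes with FPKM of at least 1, and CZy24 libraries 13635, 14212 and 14067. Means were 15014 ± 215 in LZy24 and 13971 ± 300 in CZy24 (SD, n = 3 each), a difference of 1043 genes with no overlap (exact permutation test, two-sided, p = 0.1, below which a design of 3 and 3 cannot go). At FPKM of at least 5 the groups overlapped, with 12028 ± 28.2 genes in LZy24 and 12092 ± 223 in CZy24. The tables give no read counts, and steps in their low values put 1 fragment per kilobase at 0.0617 to 0.0793 FPKM in LZy24 and 0.05 to 0.0668 FPKM in CZy24, that is, at somewhat lower depth in LZy24. Spearman correlations between libraries were 0.959 to 0.982 within LZy24, 0.918 to 0.966 within CZy24 and 0.846 to 0.869 between the crosses, as a description over genes. CZy24 replicate 1 stood farther from its group, at a root mean square log2 difference of 1.09 and 1.19 from replicates 2 and 3, which were 0.746 apart. Among the 14 hour libraries, LZy14 replicate 3 was close to a mixture of replicates 1 and 2 in proportions 0.55 to 0.45 (root mean square log2 residual 0.123), and 1168 of the 1170 genes that differed at least 4-fold between those 2 lay between them in replicate 3. It may not be an independent replicate, and 14 hour counts are given with and without it.

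The zygote markers RKD4, WOX8, WOX9 and WOX2 all stood above 70 FPKM in each of the 6 libraries. They do not by themselves set the zygote apart from the stages beside it. Means in 1C were 328 FPKM for WOX9, 135 FPKM for WOX8, 104 FPKM for WOX2 and 2.27 FPKM for RKD4. In EC they were 175 FPKM for WOX8, 109 FPKM for RKD4 and 0 for WOX9 and WOX2. Summed over 10 egg cell genes the level was 63.2 to 78.3 FPKM in LZy24 and 50.2 to 68.1 FPKM in CZy24, against 98621 to 151324.1 FPKM in EC. Most of the zygote sum was EC1.5, at 52.2, 73.0 and 64.7 FPKM in LZy24, against 43.4, 43.5 and 39.5 FPKM in CZy24, and EC1.1, EC1.2 and EC1.3 were listed at 0 in all 6. Summed over 8 central cell and endosperm markers the level was 14.3 to 16.4 FPKM in LZy24 and 3.66 to 9.58 FPKM in CZy24, with MEA and PHE1 listed at 0 in all 6, and AGL62 alone stood at 10.9, 14.2 and 10.2 FPKM in LZy24, against 1.35, 5.65 and 7.05 FPKM in CZy24. The sums were 0 to 0.47 FPKM in LZy24 and 0 to 0.04 FPKM in CZy24 for 7 synergid markers, 0.2 to 3.31 FPKM in LZy24 and 3.41 to 8.03 FPKM in CZy24 for 12 seed coat and integument markers, and 4.64 to 13.1 FPKM in LZy24 and 6.81 to 16.8 FPKM in CZy24 for 6 sperm and pollen markers, of which DUO1, MGH3 and DAZ1 were at 0 in all 6. Some of these lists were high in EC too. The EC sums were 250.7, 175.6 and 323 FPKM for seed coat and integument and 195.7, 175.2 and 162.2 FPKM for sperm and pollen. For synergid markers they were 69.4, 5 and 353.6 FPKM, and for central cell and endosperm markers 0.7, 0 and 2.4 FPKM. The part of these markers in the results was not tested.

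The crosses differed in many genes. Of 18815 genes tested, 2165 were higher and 2175 lower in LZy24 than in CZy24, and 23.1% were called in either direction. To be called, a gene needed an adjusted p below 0.05 (limma on log2(FPKM + 1), Benjamini-Hochberg adjustment over all genes tested) and an absolute log2 difference, LZy24 minus CZy24, of at least 1; higher or lower is written only of called genes. The LZy24 and CZy24 libraries did not overlap in 45.6% of genes tested. The median log2 difference over all genes was 0.00 and the median standard error 0.403. Without LZy14 replicate 3 in the fit, 2032 were higher and 2028 lower in LZy24 than in CZy24, or 21.7% of 18671 tested. Counts stayed within 1.5 times of the 2165 and 2175 when any 1 of the 6 libraries was left out, at 1619 to 2002 higher and 1621 to 2217 lower. The genes called were less stable than the counts. Of the 4340 genes called, 3188 to 3558 were still called in the same direction with 1 of the 6 libraries left out. Where a library held several zygotes, fewer zygotes in a given state and less RNA per zygote cannot be told apart.

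**Figure D1:**
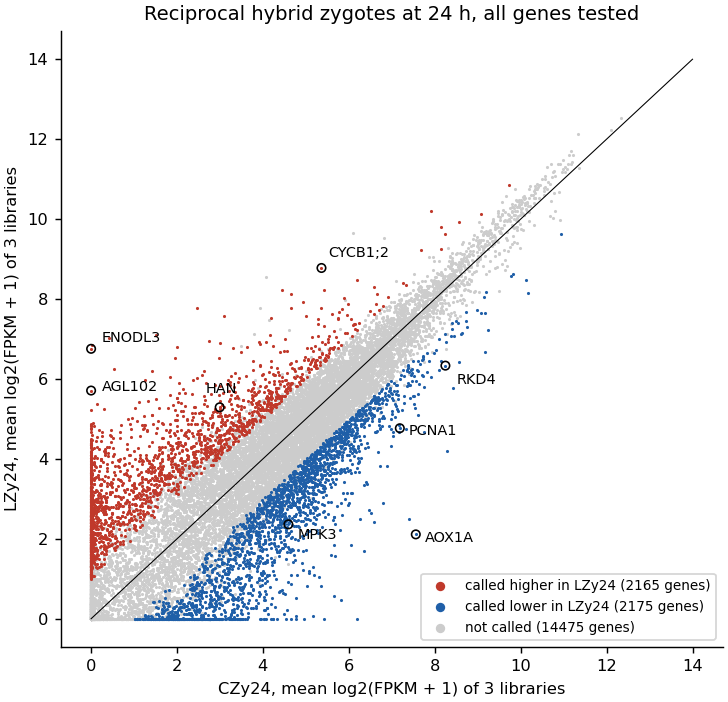
Mean log2(FPKM + 1) over 3 libraries of LZy24 (vertical axis) against CZy24 (horizontal axis) for 18815 genes, 1 point a gene, with called genes coloured and the diagonal marking equal levels. CYCB1;2, HAN, ENODL3 and AGL102 lie above the diagonal, and RKD4, PCNA1, MPK3 and AOX1A below it.

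Several of the genes highest in LZy24 were at or near 0 in all CZy24 libraries. AT2G23530, a zinc-finger protein gene, stood at 124, 98.5 and 123 FPKM in LZy24, against 0, 0.04 and 0 FPKM in CZy24 (a log2 difference of 6.83 ± 0.58, adjusted p = 6.96e-07). ENODL3, an early nodulin-like protein gene, had 192, 58.3 and 109 FPKM in LZy24, against 0, 0 and 0 FPKM in CZy24. AT3G12460, of the ribonuclease H-like superfamily, had 146, 114 and 130.4 FPKM in LZy24, against 0.25, 0 and 0.86 FPKM in CZy24. Each of these was absent or nearly so from CZy24 while every LZy24 library held it at 58 FPKM or more. The MADS-box gene AGL102 varied more within LZy24, with 109, 15.2 and 79.1 FPKM in LZy24, against 0, 0 and 0 FPKM in CZy24, and was listed at 0 in Zy24 as well. ROPGEF6, an activator of the ROP family of small GTPases, had 24.7, 30.9 and 29.0 FPKM in LZy24, against 0, 0 and 0 FPKM in CZy24. The other 7 of the 12 genes highest by the naming rule were AT4G09060, AT3G12870, AT3G03130, AT2G38160, AT1G54930, AT4G26170 and AT1G67035, with log2 differences from 4.86 to 5.72.

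The 12 lowest in LZy24 included some of like level in the CZy24 libraries and some far lower in CZy24 replicate 1. AT1G30060, coding for a COP1-interacting-like protein, was even, at 2.27, 6.52 and 6.24 FPKM in LZy24, against 159.8, 179 and 167 FPKM in CZy24 (a log2 difference of -4.91 ± 0.31, adjusted p = 4.81e-08). It was listed at 0 in all Zy24 libraries, but had means of 101 FPKM in LZy14, 71.3 FPKM in CZy14 and 60.1 FPKM in EC. SCL5, a GRAS family gene, had 0, 0 and 0 FPKM in LZy24, against 17.9, 31.7 and 24.9 FPKM in CZy24 and was also at 0 in Zy24. AT2G14247, of unknown function, had 0, 0.18 and 0 FPKM in LZy24, against 63.2, 26.8 and 25.5 FPKM in CZy24, and AT3G05932, annotated as a non-coding RNA, 0, 0 and 0 FPKM in LZy24, against 40.3, 25.2 and 18.1 FPKM in CZy24. The last 3 were thus found in CZy24 at 17.9 FPKM or more and at 0.18 FPKM or less in LZy24, whereas AT1G30060 kept a low level in LZy24 that was higher than in Zy24 (log2 difference 2.49, adjusted p = 2.24e-05). By contrast, GSTU9, a glutathione S-transferase gene, had 0, 0 and 0 FPKM in LZy24, against 11.6, 161 and 187 FPKM in CZy24, and AOX1A, the mitochondrial alternative oxidase, 0.11, 29.8 and 1.36 FPKM in LZy24, against 59.2, 317 and 349 FPKM in CZy24. In both the lowest CZy24 value was that of replicate 1. AGL67 (0, 0 and 0 FPKM in LZy24, against 11.3, 73.2 and 86.3 FPKM in CZy24), the monooxygenase gene MO1 (0.66, 97.3 and 121 FPKM in CZy24), AT2G41730 (2.51, 81.1 and 102 FPKM) and the zinc-finger gene AT3G46080 (8.47, 133 and 141 FPKM) had the same order of CZy24 libraries and stood at 0 to 1.59 FPKM in LZy24. The call of MO1 was lost without CZy24 replicate 2 (adjusted p = 0.0791) or replicate 3 (adjusted p = 0.0793). EXLA1, an expansin-like gene, and AT2G07741, a locus like a mitochondrial ATPase gene, made up the 12.

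Most mitotic genes were higher in LZy24. This list and those that follow were chosen with earlier results of these data known, so their shares are a description. Of 19 genes of mitosis tested, 13 were higher and none lower, or 68.4% called against 23.1% of all genes, and the median log2 difference was 2.60 against 0.00. All 19 had no overlap between the LZy24 and CZy24 libraries, which held for 45.6% of all genes. CYCB1;2, a B-type cyclin that drives entry into mitosis, had 509, 374 and 439.5 FPKM in LZy24, against 148, 2.69 and 126 FPKM in CZy24 (a log2 difference of 3.41 ± 1.02, adjusted p = 0.0193). CYCB1;3 had 191, 170.1 and 189.7 FPKM in LZy24, against 50.1, 1.63 and 44.1 FPKM in CZy24 (a log2 difference of 3.34 ± 1.13, adjusted p = 0.0347). Within LZy24 the 3 libraries were alike, while in CZy24 replicate 2 was near 0 for both cyclins. The Aurora kinase gene AUR2 (104, 106 and 96.3 FPKM in LZy24, against 35.9, 0.14 and 32.6 FPKM in CZy24) and AT1G03780, a targeting protein for the spindle factor XKLP2 (79.2, 44.2 and 74.5 FPKM in LZy24, against 11.9, 0.19 and 10.1 FPKM in CZy24), showed the same low replicate. Members without it included CDC20.1, an activator of the anaphase-promoting complex, with 647, 654 and 519 FPKM in LZy24, against 194, 190.4 and 229 FPKM in CZy24 (a log2 difference of 1.56 ± 0.19, adjusted p = 1.61e-05). The A-type cyclin CYCA1;1 had 117, 103 and 148 FPKM in LZy24, against 16.5, 13.5 and 12.1 FPKM in CZy24, and PLE, a microtubule-bundling protein of cytokinesis, 60.2, 67.7 and 74.2 FPKM in LZy24, against 13.8, 13.6 and 17.5 FPKM in CZy24. CDKB2;1, a plant-specific mitotic kinase, had 285, 322 and 340.1 FPKM in LZy24, against 101, 77.4 and 109.5 FPKM in CZy24. In these 4 all CZy24 libraries lay below all LZy24 libraries and close to each other, and these 4, like the uncalled members below, were picked after their values were seen.

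The 6 mitotic genes not called were CDKB1;1, CDKB1;2, AUR3, CYCB1;4, KN and HIK. KN, the syntaxin of the cell plate, had 218, 182 and 140.2 FPKM in LZy24, against 56.2, 0.8 and 53.5 FPKM in CZy24 (adjusted p = 0.0728), and CYCB1;4 115, 109 and 115 FPKM in LZy24, against 41.3, 0 and 32.4 FPKM in CZy24 (adjusted p = 0.0666); CZy24 replicate 2 was the lowest for both. In CZy24 replicate 2, 8 of the 19 mitotic genes were below 5 FPKM, against 1 in each of replicates 1 and 3, and at most 1 in any LZy24 library. Zy24 replicate 1 likewise had 7 of 19 below 5 FPKM, against 1 in Zy24 replicates 2 and 3. The summed level of the 19 genes was 3417, 3167 and 3140.3 FPKM in LZy24, against 1126, 667 and 1171 FPKM in CZy24, and 589, 1196 and 1224 FPKM in Zy24. Every LZy24 library was thus above every CZy24 and Zy24 library. The high level was not particular to LZy24, as the sums in 1C were 1582, 4591 and 2760 FPKM, a range that holds the LZy24 sums. When CZy24 replicate 2 was left out, 9 were higher, and the calls of CYCB1;2 (log2 difference 1.67, adjusted p = 0.0537), CYCB1;3 (1.94, adjusted p = 0.212) and AUR2 (1.55, adjusted p = 0.0828) were lost. The call of CYCB1;3 was also lost without any 1 LZy24 library (adjusted p 0.0759 to 0.0856), and that of AUR2 without LZy24 replicate 1 (adjusted p = 0.0507).

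DNA replication genes went the other way. Of 18 tested, 9 were lower and none higher in LZy24, 50% called against 23.1% of all genes, with a median log2 difference of -1.43. Subunits of the MCM helicase, which unwinds DNA at replication forks, were among them. MCM5 had 6.69, 6.06 and 9 FPKM in LZy24, against 38.1, 34.1 and 32.7 FPKM in CZy24 (a log2 difference of -2.14 ± 0.41, adjusted p = 0.000946), and MCM7 had 9.33, 7.06 and 11.7 FPKM in LZy24, against 31.9, 42.3 and 47.8 FPKM in CZy24 (a log2 difference of -2.01 ± 0.40, adjusted p = 0.00133). In both, the highest LZy24 library lay well below the lowest CZy24 library. PCNA1, the sliding clamp of DNA polymerases, had 32.6, 8.95 and 59.4 FPKM in LZy24, against 140.5, 136 and 158 FPKM in CZy24 (a log2 difference of -2.42 ± 0.52, adjusted p = 0.00215), with LZy24 replicate 2 the lowest. ORC1A, of the complex that marks replication origins, had 0, 0 and 1.07 FPKM in LZy24, against 6.04, 4.16 and 3.36 FPKM in CZy24. MCM3, MCM4, PCNA2, the cell-cycle transcription factor gene E2FB and RNR1, a subunit of ribonucleotide reductase, were the other 5 called, named after their values were seen, with log2 differences from -1.91 to -1.64. Not every member followed, since MCM6 stood at 9.22, 6.68 and 7.41 FPKM in LZy24, against 2.22, 6.16 and 8.89 FPKM in CZy24, with overlap, and MCM2 and ORC2 at log2 differences of -0.34 and -0.22. The summed level was 516, 289.9 and 461 FPKM in LZy24, against 779, 1006 and 1067 FPKM in CZy24.

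At 14 hours the replication list stood in the opposite direction, with 5 higher and 2 lower in LZy14 and a median of 0.87, where 4.41% of all genes were higher and 7.22% lower. Without LZy14 replicate 3 the list had 2 higher and 1 lower, against 2.35% and 4.43% of all genes. The change of the reciprocal difference between the hours was called downward for 8 of the 18, against 9.76% of all genes, and for 8 without LZy14 replicate 3, against 7.04%. MCM5 had 13.1, 37.9 and 23.0 FPKM in LZy14 and 2.70, 2.02 and 3.81 FPKM in CZy14 (log2 difference 2.65), and its difference changed by -4.78 from 14 to 24 hours. For MCM7 the 14 hour difference was 1.42 and the change -3.43, and without LZy14 replicate 3 MCM5 but not MCM7 was called at 14 hours. Mitotic genes at 14 hours numbered 2 higher and none lower with a median of -0.21, and the change was called upward in 8 of 19, against 12% of all genes, or in 6 without LZy14 replicate 3, against 9.37%. Among 44 histone genes tested 4 were lower and none higher in LZy24, 9.09% called against 23.1% of all genes, with a median of -0.58. HTA11, a histone H2A variant gene, had 76.7, 47.2 and 80.04 FPKM in LZy24, against 217, 229 and 189.8 FPKM in CZy24, and AT3G53650, AT3G27360 and AT2G37470 were the other 3, at log2 differences of -1.42, -1.24 and -1.02. Histone genes have near-identical copies, so single values are uncertain. The call of AT2G37470 was lost without LZy24 replicate 2, CZy24 replicate 2 or CZy24 replicate 3, at adjusted p 0.0673 to 0.11, whereas 8 histone genes were lower without LZy24 replicate 3.

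**Figure D2:**
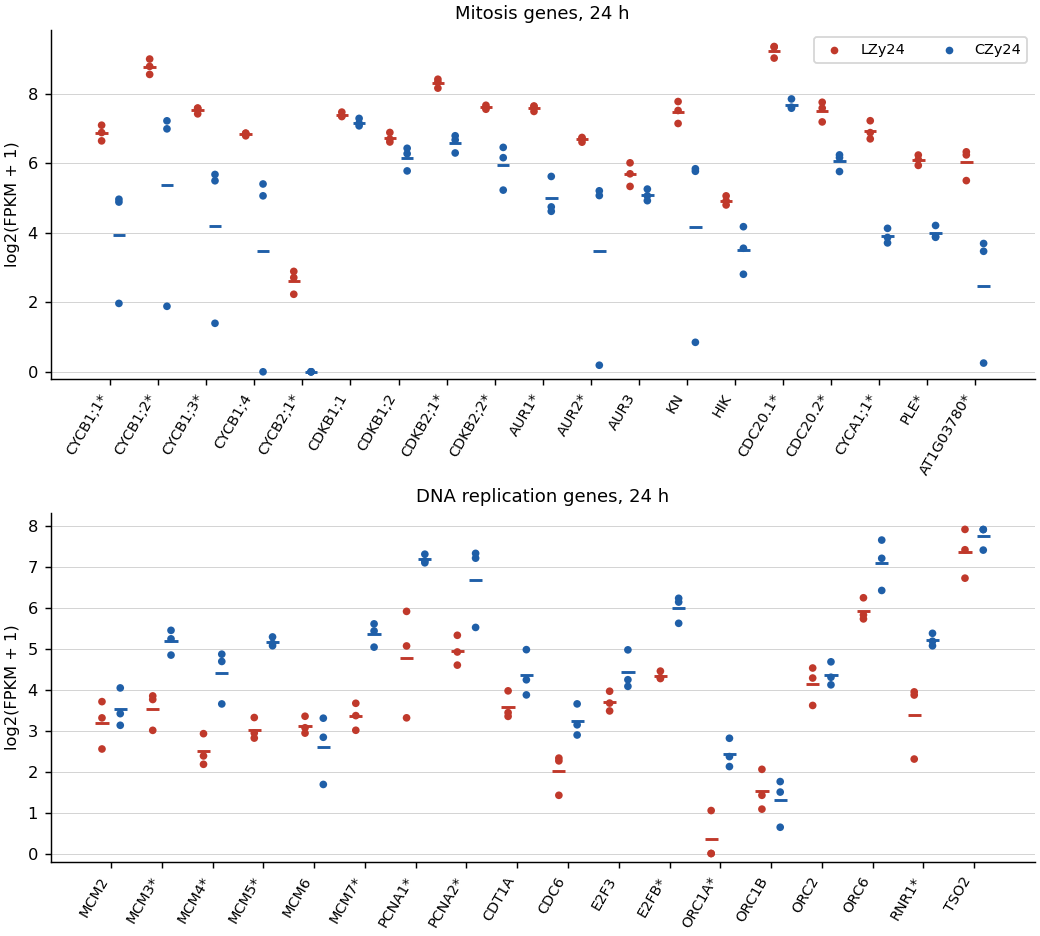
Log2(FPKM + 1) in each library (points) and the mean of 3 libraries (bars) for 19 mitosis genes and 18 DNA replication genes, with LZy24 left of CZy24 for each gene and an asterisk at called genes. All 19 mitosis genes have their LZy24 points above their CZy24 points, with 1 low CZy24 point in several of them, and 9 of the 18 replication genes were lower in LZy24.

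Most stress genes were lower in LZy24. Of 13 stress and wounding genes tested, 9 were lower and none higher, 69.2% called against 23.1% of all genes, with a median of -2.21. ZAT12, a zinc-finger protein induced by many stresses, had 15.3, 56.8 and 16.9 FPKM in LZy24, against 78.8, 334 and 364 FPKM in CZy24 (a log2 difference of -3.06 ± 0.49, adjusted p = 0.000205). HSFA2, a heat shock transcription factor, had 1.81, 13.7 and 2.29 FPKM in LZy24, against 39.1, 59.5 and 53.4 FPKM in CZy24 (a log2 difference of -3.31 ± 0.74, adjusted p = 0.00293). The gene for alcohol dehydrogenase, ADH1, had 6.33, 55.2 and 14.0 FPKM in LZy24, against 51.1, 691 and 825 FPKM in CZy24 (a log2 difference of -4.08 ± 0.92, adjusted p = 0.00374). HSP17.6II, a small heat shock protein gene, had 0, 32.9 and 7.29 FPKM in LZy24, against 31.4, 142 and 148 FPKM in CZy24. ZAT12 and HSFA2 did not overlap between the crosses, whereas ADH1 and HSP17.6II did, through a high LZy24 replicate 2 and a low CZy24 replicate 1. The same pattern ran through the list, as LZy24 replicate 2 was the highest LZy24 library and CZy24 replicate 1 the lowest CZy24 library in all 10 members above 0 in any of the 6. DREB2A, HSP101, TCH4, HSP90.1 and HSP70 were the other 5 called, named after their values were seen, and in all 5 of the 13 tested members, or 38.5%, did not overlap, against 45.6% of all genes. The summed level of the 18 listed genes was 183, 508 and 261 FPKM in LZy24, against 616, 2108 and 2238 FPKM in CZy24, and 1724, 931 and 1026 FPKM in Zy24. ZAT10, JAZ1 and RD29A were listed at 0 in all 6 libraries. Without 1 library, 6 to 9 were lower, the fewest without CZy24 replicate 2.

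The wider set of heat shock proteins and chaperones held 35 lower and 15 higher of 178 tested, 28.1% called against 23.1% of all genes and a median of -0.18, with 22 lower without CZy24 replicate 2. HSP23.6-MITO, which acts in mitochondria, had 0, 19.1 and 6.66 FPKM in LZy24, against 10.1, 256 and 306 FPKM in CZy24, and HSP17.4 0, 61.8 and 5.52 FPKM in LZy24, against 38.8, 186 and 186 FPKM in CZy24. AT1G53540, of the same small heat shock family, had 2.18, 56.0 and 0.37 FPKM in LZy24, against 59.8, 136 and 92.1 FPKM in CZy24. LZy24 replicate 2 was again the highest of its group in each. The call of HSP23.6-MITO was lost without LZy24 replicate 1 or CZy24 replicate 2 or 3 (adjusted p 0.0525 to 0.0566). At 14 hours none of the 13 stress genes was called, with or without LZy14 replicate 3, where 11.6% and 6.79% of all genes were. Their median was -0.85, against -0.04 over all genes. The change of the difference was called in 2 of the 13, or 15.4%, against 21.8% of all genes, and in 1 without LZy14 replicate 3, against 16.4%.

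Loci whose sequence is shared with the mitochondrial chromosome formed a further group, noticed in the values and then defined by sequence. Chromosome 2 holds a copy of mitochondrial DNA, and 78 listed nuclear loci, 76 on chromosome 2 and 2 on chromosome 1, matched the RefSeq mitochondrial chromosome at 95% identity or more over at least 80% of the gene. Reads from such a locus and from the mitochondrion cannot be told apart. Of 36 tested, 19 were lower and none higher in LZy24, 52.8% called against 23.1% of all genes, with a median of -1.48, all of which describes a group picked from these data. AT2G07741, like an ATPase subunit gene, had 5.68, 0 and 4.05 FPKM in LZy24, against 93.9, 65.2 and 84.1 FPKM in CZy24 (a log2 difference of -4.65 ± 0.62, adjusted p = 4.11e-05). AT2G07727, like cytochrome b, had 0, 0.24 and 0.05 FPKM in LZy24, against 10.7, 14.7 and 28.0 FPKM in CZy24 (a log2 difference of -4.0 ± 0.34, adjusted p = 8.53e-07). AT2G07777, like the ATP synthase subunit 9 gene, had 0, 0 and 0 FPKM in LZy24, against 10.7, 12.7 and 25.6 FPKM in CZy24. AT2G07698, like the alpha subunit of the ATPase, had 4.71, 5.88 and 3.52 FPKM in LZy24, against 28.3, 32.2 and 35.5 FPKM in CZy24. The summed level was 68.8, 65.8 and 54.2 FPKM in LZy24, against 421, 416 and 577 FPKM in CZy24, far apart and with little spread within LZy24. The Col zygotes were between, at 161, 182.5 and 89.7 FPKM. At 14 hours the sums were 11, 14.8 and 14.8 FPKM in LZy14, against 68.2, 61.9 and 93.8 FPKM in CZy14, and 9 of the 36 were lower in LZy14, against 7.22% of all genes, or 6 without LZy14 replicate 3, against 4.43%. In all, 5 were lower at both hours. At 24 hours all 3 CZy24 libraries (Col mother, Ler father) were above all 3 Zy24 libraries (Col mother and father). The cause of these differences was not tested.

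**Figure D3:**
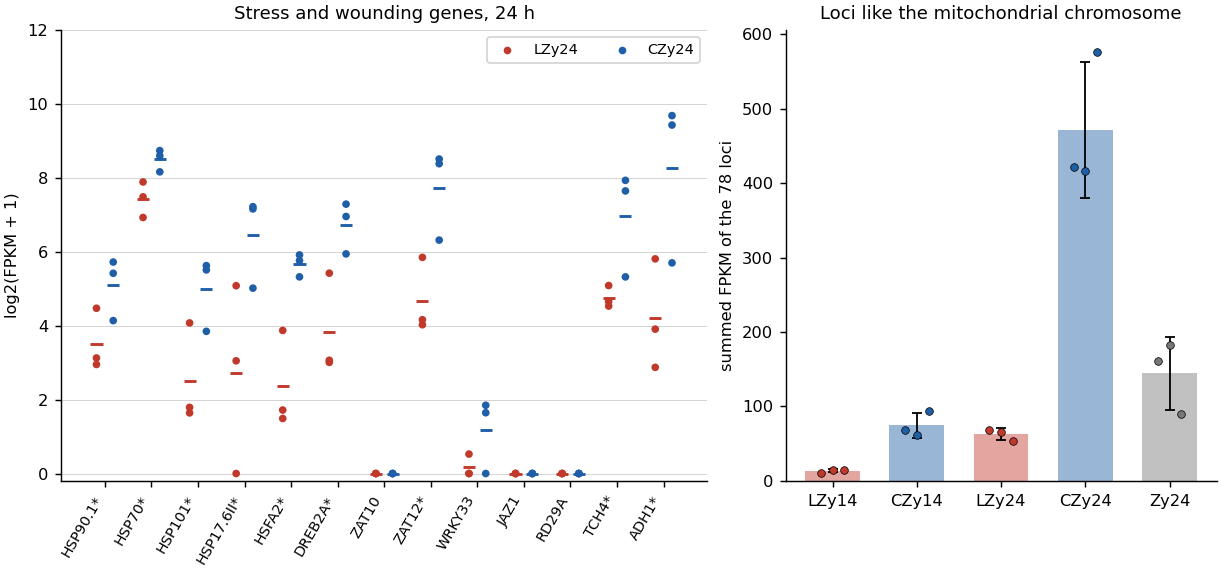
Left, log2(FPKM + 1) of 13 stress and wounding genes in each library (points) with the mean of 3 (bars), LZy24 left of CZy24, asterisks marking called genes. Right, summed FPKM of the 78 loci like the mitochondrial chromosome, with points for libraries, bars for means and error bars for the SD (n = 3), in which LZy14 and LZy24 stand below CZy14 and CZy24.

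In the list for zygote polarity and the YDA pathway, RKD4 and MPK3 were lower and BASL and ER higher in LZy24. Of 20 genes tested, 2 were higher and 2 lower, 20% called against 23.1% of all genes, with a median of 0.23. RKD4, which promotes elongation and division of the zygote, had 90.7, 71.7 and 77.6 FPKM in LZy24, against 255, 329.8 and 331 FPKM in CZy24, and 259, 239.8 and 228 FPKM in Zy24. The LZy24 libraries were below all CZy24 and Zy24 libraries, and the log2 difference from CZy24 was -1.91 ± 0.16 (adjusted p = 8.53e-07). In 1C RKD4 was lower still, at 1.54, 1.72 and 3.56 FPKM. At 14 hours the RKD4 difference was 0.25 and uncalled, and the change to 24 hours was -2.16 and called. MPK3, a kinase at the end of the YDA cascade, had 3.75, 4.85 and 3.88 FPKM in LZy24, against 18.1, 24.4 and 27.9 FPKM in CZy24 (a log2 difference of -2.23 ± 0.26, adjusted p = 1.36e-05), and 19.8, 18.3 and 24.8 FPKM in Zy24. BASL, a polarity protein of the stomatal lineage, had 2.07, 2.59 and 3.17 FPKM in LZy24, against 0, 0 and 0 FPKM in CZy24, and its call was lost without LZy24 replicate 2 or 3 or CZy24 replicate 2 (adjusted p 0.0506 to 0.0668). The receptor kinase gene AT2G26330, which is ER, the gene whose mutation names Landsberg erecta, had 0.76, 1.34 and 2.80 FPKM in LZy24, against 0.19, 0.23 and 0.13 FPKM in CZy24, and 7.87, 7.41 and 8.97 FPKM in Zy24, with the libraries of both crosses below those of Zy24. Its call was lost without any 1 of LZy24 replicates 2 and 3 and the 3 CZy24 replicates (adjusted p 0.0515 to 0.163).

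The regulators named in the background otherwise stayed short of a call. YDA had 28.5, 29.4 and 28.0 FPKM in LZy24, against 37.9, 42.6 and 46.2 FPKM in CZy24 (a log2 difference of -0.54 ± 0.20, adjusted p = 0.047), without overlap but with a difference under the threshold of 1. Likewise WOX8, which marks the basal lineage, had 309, 264 and 322 FPKM in LZy24, against 452, 453 and 404 FPKM in CZy24 (a log2 difference of -0.55 ± 0.16, adjusted p = 0.0151). Its relative WOX9 had 173, 229 and 142 FPKM in LZy24, against 83.8, 86.0 and 76.0 FPKM in CZy24 (a log2 difference of 1.11 ± 0.60, adjusted p = 0.184), and no CZy24 library reached the LZy24 range. WOX2, of the apical lineage, had 493, 399.9 and 559 FPKM in LZy24, against 359, 323 and 353 FPKM in CZy24 (a log2 difference of 0.48 ± 0.31, adjusted p = 0.275). WRKY2, an activator of WOX8, had 39.3, 35.4 and 36.2 FPKM in LZy24, against 36.5, 20.6 and 20.3 FPKM in CZy24 (a log2 difference of 0.55 ± 0.28, adjusted p = 0.158). HDG11 stood at 13.9, 20.8 and 16.5 FPKM in LZy24, against 17.0, 9.07 and 13.4 FPKM in CZy24 (a log2 difference of 0.38 ± 0.32, adjusted p = 0.431). SSP, whose RNA is delivered by sperm, had 9.47, 7.57 and 7.17 FPKM in LZy24, against 2.47, 6.76 and 7.87 FPKM in CZy24 (a log2 difference of 0.54 ± 0.44, adjusted p = 0.406), and 23.9, 29.0 and 34.3 FPKM in Zy24. These groups overlapped for WRKY2, HDG11 and SSP, and a p that misses the threshold does not show that the crosses were alike.

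Embryo patterning regulators numbered 3 higher and 2 lower of 14 tested, 35.7% called against 23.1% of all genes. HAN, a GATA transcription factor that sets the boundary of the lower embryo, had 36.6, 31.2 and 48.5 FPKM in LZy24, against 9.41, 9.56 and 3.59 FPKM in CZy24 (a log2 difference of 2.30 ± 0.54, adjusted p = 0.00409). PHB, of the class III homeodomain-leucine zipper family, had 8.30, 2.54 and 3.97 FPKM in LZy24, against 0, 0 and 0 FPKM in CZy24 (a log2 difference of 2.45 ± 0.34, adjusted p = 6.13e-05), and KAN1, of the opposing leaf polarity family, 4.4, 5.6 and 3.85 FPKM in LZy24, against 0.82, 0.24 and 0.23 FPKM in CZy24 (a log2 difference of 1.99 ± 0.36, adjusted p = 0.000529). In all 3, every LZy24 library was above every CZy24 library. On the lower side DRN, an AP2-type regulator of cotyledon formation, had 31.9, 29.4 and 23.8 FPKM in LZy24, against 59.6, 80.5 and 96.6 FPKM in CZy24 (a log2 difference of -1.43 ± 0.35, adjusted p = 0.00605), and it was lower at 14 hours too (-2.38). BBM, an AP2-type promoter of embryonic growth, had 83.7, 80.4 and 93.4 FPKM in LZy24, against 194, 184 and 162 FPKM in CZy24 (a log2 difference of -1.06 ± 0.33, adjusted p = 0.0236), and was the fifth called member, named after its value was seen. Without LZy24 replicate 1, CZy24 replicate 1 or CZy24 replicate 2, the number lower was 1. Of 6 maturation regulators only VAL1, a B3 repressor of seed maturation genes, was called, 16.7% of the list against 23.1% of all genes. It had 11.96, 15.6 and 12.1 FPKM in LZy24, against 37.6, 34.4 and 32.3 FPKM in CZy24 (a log2 difference of -1.34 ± 0.30, adjusted p = 0.00315). LEC1 and LEC2, 2 activators of embryo identity picked here after their values were seen, stood at log2 differences of -0.14 and -0.34.

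In the auxin list 3 were higher and 2 lower of 15 tested, 33.3% called against 23.1% of all genes. BDL, an Aux/IAA repressor that acts in the embryo, had 11.4, 11.99 and 7.54 FPKM in LZy24, against 0.17, 1.07 and 0.66 FPKM in CZy24 (a log2 difference of 2.81 ± 0.70, adjusted p = 0.00623), and the auxin receptor gene AFB3 10.6, 7.77 and 10.2 FPKM in LZy24, against 0.87, 2.47 and 2.61 FPKM in CZy24 (a log2 difference of 1.86 ± 0.58, adjusted p = 0.0219). The auxin synthesis genes YUC4 and YUC8 were lower. YUC4 had 2.92, 1.25 and 1.17 FPKM in LZy24, against 9.10, 22.6 and 25.4 FPKM in CZy24, and YUC8 0, 0 and 0 FPKM in LZy24, against 0, 32.3 and 40.2 FPKM in CZy24, so that CZy24 replicate 1 was at 0 like LZy24. YUC3, of the same family and named after its value was seen, was higher, at 2.42, 1.16 and 1.46 FPKM in LZy24, against 0, 0 and 0 FPKM in CZy24. The call of AFB3 was lost without LZy24 replicate 1 or 3 or CZy24 replicate 1 (adjusted p 0.0644 to 0.0797), each of which left 1 higher gene in the list, and that of YUC8 without CZy24 replicate 2 (adjusted p = 0.0956) or 3 (adjusted p = 0.097).

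Of 32 genes for DNA methylation, small RNA and Polycomb repression, 4 were higher and 4 lower, 25% called, close to the 23.1% of all genes. CLF, a Polycomb histone methyltransferase, had 14.2, 12.4 and 13.1 FPKM in LZy24, against 47.5, 44.99 and 42.2 FPKM in CZy24 (a log2 difference of -1.69 ± 0.32, adjusted p = 0.000819), with narrow ranges in both crosses. AGO10, an argonaute of small RNA pathways, had 12.3, 11.8 and 11.6 FPKM in LZy24, against 2.16, 2.16 and 0.4 FPKM in CZy24 (a log2 difference of 2.42 ± 0.51, adjusted p = 0.00178). The DNA demethylase genes ROS1 and DML2 were both higher, ROS1 at 3.07, 4.98 and 4.08 FPKM in LZy24, against 0.1, 0.52 and 0.49 FPKM in CZy24 (a log2 difference of 1.88 ± 0.36, adjusted p = 0.000992) and DML2 at 13.5, 9.09 and 8.68 FPKM in LZy24, against 2.60, 1.08 and 0.95 FPKM in CZy24 (a log2 difference of 2.20 ± 0.41, adjusted p = 0.000799). None of the 4 was called at 14 hours, where 11.6% of all genes were. VRN2 was also higher, and AGO9, AGO6 and DCL1 lower (all 4 named after their values were seen), at log2 differences of 1.17, -1.30, -1.68 and -1.44.

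In ribosome biogenesis 3 were higher and 1 lower of 18 tested, 22.2% called, close to the 23.1% of all genes. AT5G27120, a NOP56-like component of small nucleolar ribonucleoproteins, had 325, 201 and 330.5 FPKM in LZy24, against 63.5, 119 and 129 FPKM in CZy24 (a log2 difference of 1.48 ± 0.25, adjusted p = 0.000338). NUC-L2, a nucleolin, had 32.7, 47.0 and 34.5 FPKM in LZy24, against 93.0, 118 and 93.2 FPKM in CZy24 (a log2 difference of -1.40 ± 0.19, adjusted p = 5.82e-05). The Brix-domain ribosomal RNA processing genes AT1G52930 and AT3G15460 rested on 2 libraries. AT1G52930 had 213, 0 and 259 FPKM in LZy24, against 0.39, 0.2 and 0.11 FPKM in CZy24, and AT3G15460 40.9, 0 and 54.7 FPKM in LZy24, against 0, 0 and 0.15 FPKM in CZy24, so LZy24 replicate 2 was at 0, and CZy24 and Zy24 libraries were below 1 FPKM. Without LZy24 replicate 3 both calls were lost (adjusted p 0.0547 and 0.0512), and that of AT1G52930 also without replicate 1 (0.0549). Ribosomal protein genes, taken by product, were called in 6.09% of 312 (12 higher, 7 lower), against 23.1% of all genes, with 245 of 312 differences positive and a median of 0.28. Their summed level was 180136 to 190673 FPKM in LZy24 and 144295 to 155101 FPKM in CZy24. The 4 with the largest differences were AT3G06180 (3.88), AT2G07734 (-3.22), AT5G63070 (-2.90) and AT4G22380 (2.64), of which AT2G07734 is also one of the loci like the mitochondrial chromosome. Without LZy24 replicate 2, CZy24 replicate 2 or CZy24 replicate 3 the call of AT5G63070 was lost (adjusted p 0.0532 to 0.0978). In mRNA decay 2 of 9 were lower and none higher, 22.2% called, close to the 23.1% of all genes. DCP2, the decapping enzyme, had 55.0, 56.7 and 48.6 FPKM in LZy24, against 99.7, 133 and 141 FPKM in CZy24 (a log2 difference of -1.20 ± 0.19, adjusted p = 0.000165), and CAF1b, a deadenylase, 13.9, 19.4 and 13.7 FPKM in LZy24, against 62.6, 35.9 and 44.8 FPKM in CZy24 (a log2 difference of -1.53 ± 0.38, adjusted p = 0.00658).

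**Figure D4:**
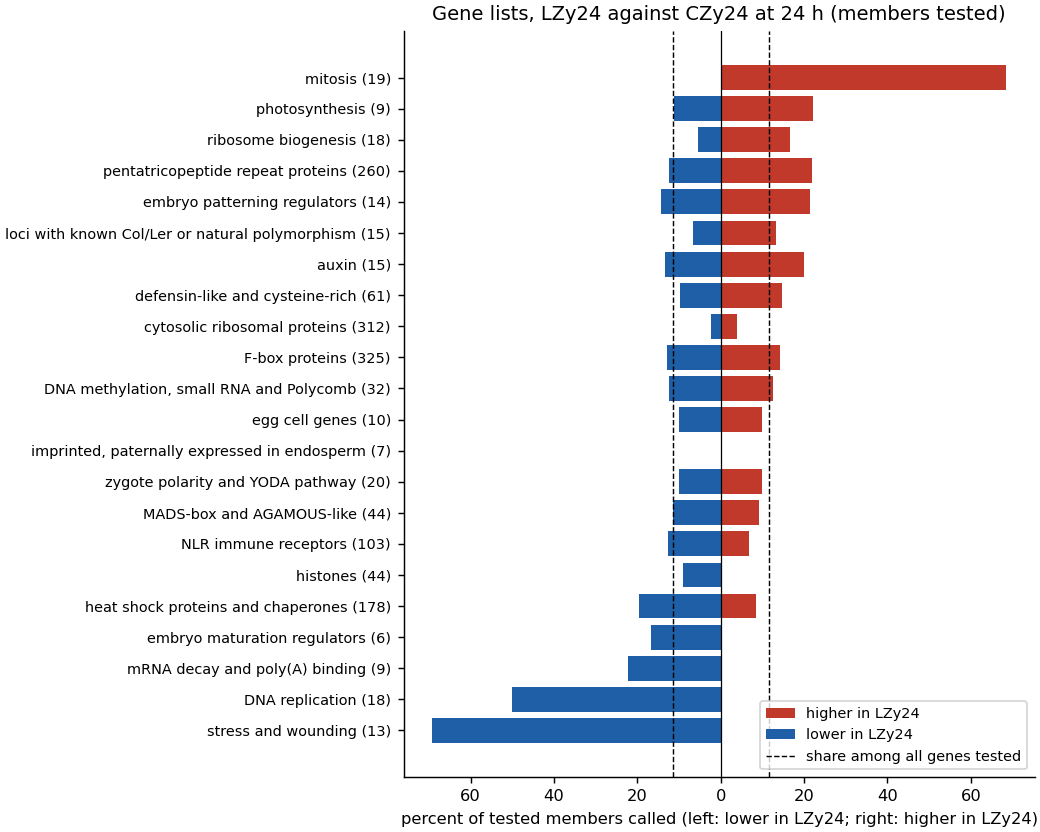
Share of tested members called higher (right) or lower (left) in LZy24 than in CZy24 for each gene list with at least 6 tested members. Dashed lines give the shares among all genes tested, 11.5% higher and 11.6% lower. Lists put together after the values of this comparison were seen are left out, but those drawn were chosen with earlier results of these data known. Among the lists drawn, mitosis extends farthest to the right, and stress and wounding and DNA replication farthest to the left.

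Of 260 genes for pentatricopeptide repeat proteins, which process organelle RNA, 57 were higher and 32 lower, 34.2% called against 23.1% of all genes. At 14 hours 2 were higher and 36 lower, where 4.41% of all genes were higher and 7.22% lower, and without LZy14 replicate 3 none was higher and 18 lower of 259, against 2.35% and 4.43%. Without LZy24 replicate 1, 21 were lower at 24 hours. AT1G73400 had 22.3, 22.1 and 13.1 FPKM in LZy24, against 0, 0 and 0 FPKM in CZy24, AT1G14470 10.5, 15.6 and 8.51 FPKM in LZy24, against 0, 0 and 0 FPKM in CZy24 and AT3G22670 8.81, 7.88 and 10.5 FPKM in LZy24, against 0, 0 and 0 FPKM in CZy24. AT1G62910 went the other way, with 0.76, 0.77 and 2.08 FPKM in LZy24, against 40.4, 25.3 and 13.9 FPKM in CZy24. The change from 14 to 24 hours was called upward in 61 and downward in 14 of the 260, against 12% and 9.76% of all genes (53 and 12 of 259 without LZy14 replicate 3, against 9.37% and 7.04%). F-box genes had 46 higher and 42 lower of 325, 27.1% called against 23.1% of all genes. AT1G10780 stood at 63.3, 51.8 and 71.8 FPKM in LZy24, against 0.57, 1.71 and 2.12 FPKM in CZy24, whereas AT1G80470 had 0, 0 and 0 FPKM in LZy24, against 30.8, 17.3 and 13.2 FPKM in CZy24 and AT3G51171 0, 0 and 0 FPKM in LZy24, against 27.2, 18.5 and 11.3 FPKM in CZy24. Neither of the last 2 was above 0.03 FPKM in Zy24. They were unlike at earlier stages, as AT1G80470 had means of 240 FPKM in EC, 368 FPKM in LZy14 and 277 FPKM in CZy14. AT3G51171 was at 0 in each of these groups. AT1G47340 was at a log2 difference of 4.0. Of 103 nucleotide-binding leucine-rich repeat (NLR) immune receptors, 7 were higher and 13 lower, 19.4% called against 23.1% of all genes, with TTR1 at 0, 0.88 and 0.02 FPKM in LZy24, against 12.9, 11.3 and 6.08 FPKM in CZy24. AT3G14470 had 0, 0 and 0 FPKM in LZy24, against 4.82, 10.02 and 6.48 FPKM in CZy24, and AT5G46270 and AT2G16870 were at log2 differences of -2.77 and 2.39. Without any 1 of the LZy24 libraries or CZy24 replicate 2, 5 to 7 were lower. At 14 hours 2 of the NLR genes were higher and 28 lower in LZy14, where 4.41% of all genes were higher and 7.22% lower. Without LZy14 replicate 3 none was higher and 16 lower of 101, against 2.35% and 4.43% of all genes. NLR and F-box genes include close copies, so single values are uncertain.

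Among 44 MADS-box genes 4 were higher and 5 lower, 20.5% called against 23.1% of all genes, with AGL102, AGL67, AT3G05860 (0, 0 and 0 FPKM in LZy24, against 22.8, 12.1 and 13.2 FPKM in CZy24) and AGL16 (8.16, 6.33 and 8.98 FPKM in LZy24, against 0, 0 and 0 FPKM in CZy24) the largest. Without LZy24 replicate 2, 7 of them were higher, and without CZy24 replicate 2 or 3, 3 were lower. Defensin-like and cysteine-rich genes had 9 higher and 6 lower of 61, 24.6% called against 23.1% of all genes (5 higher without LZy24 replicate 2), with LCR68 at 333, 185 and 277 FPKM in LZy24, against 47.3, 61.3 and 69.1 FPKM in CZy24. AT2G32210, AT2G32190 and LCR61 were at log2 differences of -2.49, -2.65 and 1.93, and the call of AT2G32190 was lost without LZy24 replicate 1 or CZy24 replicate 2 or 3 (adjusted p 0.0582 to 0.121). Of 9 photosynthesis genes CAB3 and PSBR were higher and LHCB2.1 lower, 33.3% called against 23.1% of all genes, all at single-digit FPKM. CAB3 (3.66, 6.52 and 1.22 FPKM in LZy24, against 0, 0 and 0 FPKM in CZy24) lost its call without LZy24 replicate 2 (adjusted p = 0.0631) and LHCB2.1 (0, 0 and 0.07 FPKM in LZy24, against 0, 5.22 and 8.54 FPKM in CZy24) without CZy24 replicate 2 (adjusted p = 0.0686) or 3 (adjusted p = 0.0802). PSBR was at a log2 difference of 1.94.

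In a list of 15 tested loci with natural polymorphism, ER and RPM1 were higher and MAF3 lower, 20% called against 23.1% of all genes. MAF3, a flowering repressor of the FLC family, had 4.59, 6.07 and 8.80 FPKM in LZy24, against 47.6, 30.3 and 26.7 FPKM in CZy24 (a log2 difference of -2.26 ± 0.32, adjusted p = 7.17e-05), and 32.1, 23.2 and 25.4 FPKM in Zy24. RPM1, an immune receptor, had 1.44, 1.29 and 0.69 FPKM in LZy24, against 0, 0.04 and 0.11 FPKM in CZy24, and its call was lost on leaving out any 1 of LZy24 replicates 1 and 2 and the 3 CZy24 replicates (adjusted p 0.0571 to 0.106). None of 7 tested genes imprinted with paternal expression in endosperm and none of 2 with maternal expression was called, where 23.1% of all genes were. Among 10 egg cell genes EC1.4 was higher (2.09, 0.52 and 1.04 FPKM in LZy24, against 0, 0 and 0 FPKM in CZy24) and SBT4.13 lower (8.91, 2.15 and 6.68 FPKM in LZy24, against 24.7, 17.4 and 9.62 FPKM in CZy24). That made 20% called, close to the 23.1% of all genes. The call of EC1.4 was lost without LZy24 replicate 1 (log2 difference 0.82, adjusted p = 0.108). That of SBT4.13 was lost without LZy24 replicate 2 only by the size threshold of 1 (log2 difference -0.97, adjusted p = 0.0447). Of markers of other cells, the gamete fusion gene HAP2 was higher, at 6.68, 1.61 and 9.36 FPKM in LZy24, against 0, 0 and 0 FPKM in CZy24. GEX1, a gamete-expressed nuclear envelope gene, was lower, at 0, 0.1 and 0.57 FPKM in LZy24, against 6.20, 13.8 and 9.82 FPKM in CZy24 (a log2 difference of -3.13 ± 0.41, adjusted p = 3.39e-05), and the seed coat mucilage gene MUM4 was lower, at 1.1, 0.03 and 0.82 FPKM in LZy24, against 8.03, 5.08 and 3.36 FPKM in CZy24. All 3 of these genes were also found in the egg cell libraries. HAP2 had 16.28, 15.23 and 12.87 FPKM in EC, GEX1 179.45, 159.94 and 149.29 FPKM, and MUM4 250.39, 174.58 and 323 FPKM. None of the 3 tested endosperm or 2 tested synergid markers was called, where 23.1% of all genes were.

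Some genes were present in 1 cross only. With FPKM of at least 5 in all 3 libraries of one cross and under 1 in all 3 of the other, 261 genes (1.41% of 18540 listed in any of the 6) were found in LZy24 alone and 77 (0.415%) in CZy24 alone. Of these, 114 of the LZy24 genes and 27 of the CZy24 genes were listed at 0 in every library of the other cross. The Zy24 mean was at least 1 FPKM for 207 of the 261 and 39 of the 77, and the EC mean for 183 and 33. Leaving out CZy24 replicate 1 gave 224 CZy24 genes, and leaving out CZy24 replicate 3 gave 129.

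Beside the Col zygotes, LZy24 had 1844 genes higher and 2021 lower (20.5% called), and CZy24 had 2093 higher and 2311 lower (23.4% called). These comparisons share the Zy24 libraries and are given side by side. Over all genes 9.80% were higher and 10.7% lower in LZy24 than in Zy24, and 11.1% higher and 12.3% lower in CZy24 than in Zy24. Of 19 mitotic genes, 13 were higher in LZy24 than in Zy24 (median 2.63) and 1 in CZy24 than in Zy24 (median -0.13). Of 18 replication genes, 1 was higher and 4 lower in LZy24 (median -0.45), while 7 were higher and none lower in CZy24 (median 0.71). For stress genes the counts were none higher and 8 lower of 13 in LZy24 (median -2.14), and none higher and 2 lower in CZy24 (median 0.07). RKD4 differed from Zy24 by -1.59 in LZy24 and 0.32 in CZy24. For all 2165 genes higher in LZy24 than in CZy24, Zy24 lay nearer LZy24 in 54.9%, and for the 2175 lower ones in 50.9%. Among genes not called it was 44.9%. In the Col series the 1-cell embryo was above Zy24 in 63% of the genes higher in LZy24, 37.1% of those lower and 44.6% of those not called (Pearson r over all genes 0.193, as a description over genes that share libraries). For the step before, Zy24 was above Zy14 in 44.7% of the genes higher in LZy24, 42.9% of those lower and 45.3% of those not called (Pearson r 0.043).

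At 14 hours LZy14 had 829 genes higher and 1358 lower than CZy14, 11.6% of those tested, or 439 and 828 (6.79%) without LZy14 replicate 3. Of the genes called at 24 hours 11.9% were called at 14 hours as well, and of those called at 14 hours 23.6% were called at 24 hours, close to the 23.1% of all genes. Of the 516 shared genes 260 had the same direction and 256 the opposite one, and without LZy14 replicate 3 the numbers were 135 and 135. The change of the difference itself, tested between the hours, was called in 4095 genes, 21.8%, with 2259 upward and 1836 downward, or 3064 (16.4%) without LZy14 replicate 3. Among the genes called at 24 hours 56% had a called change, and among those called at 14 hours 58.3%. The change is computed from both differences and the same libraries. These shares are therefore raised by the selection of the genes, and no conclusion is drawn from them.

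**Figure D5:**
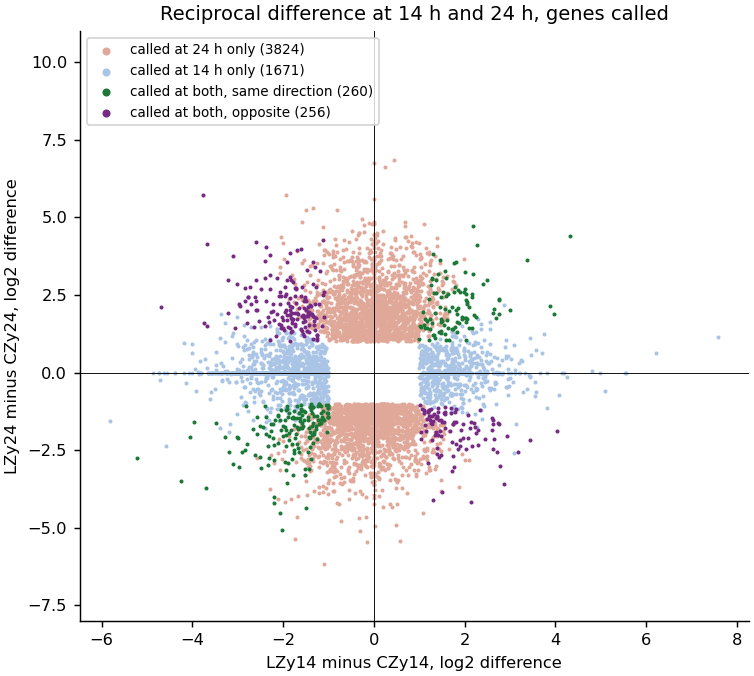
Log2 difference LZy24 minus CZy24 (vertical axis) against LZy14 minus CZy14 (horizontal axis) for genes called at either hour, 1 point a gene, coloured by the hour and direction of the calls. The 260 genes with the same direction and the 256 with opposite directions are those called at both hours.

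Genes that held their direction at both hours included AT4G05490, of the leucine-rich RNI-like superfamily, with 30.4, 9.12 and 29.2 FPKM in LZy24, against 0, 0 and 0 FPKM in CZy24 at 24 hours and 14.7, 20.4 and 22.8 FPKM in LZy14 against 0, 0 and 0 FPKM in CZy14. AT3G04350, coding for a vacuolar sorting-associated protein, had 11.5, 11.5 and 10.7 FPKM in LZy24, against 0, 0 and 0 FPKM in CZy24, and 7.53, 14.5 and 11.6 FPKM in LZy14 against 0.35, 0.1 and 0 FPKM in CZy14. Both were at or near 0 in every CZy24 and CZy14 library. The Col zygotes held both, with AT4G05490 at 8.88, 16.32 and 18.6 FPKM and AT3G04350 at 20.55, 7.11 and 14.02 FPKM in Zy24. AT3G06330, AT4G24710, AT1G63205 and AT4G03298 were also higher at both hours, with 24 hour differences of 2.85, 2.98, 2.38 and 2.33. On the lower side AT1G03810, a nucleic acid-binding protein gene, had 0, 3.49 and 0 FPKM in LZy24, against 15.7, 19.9 and 28.3 FPKM in CZy24, and 0, 0 and 0 FPKM in LZy14 against 10.9, 15.1 and 10.3 FPKM in CZy14. The low oxygen regulator ERF71 (0, 2.11 and 0 FPKM in LZy24, against 0, 58.1 and 73.4 FPKM in CZy24) and UGT74E2 (0, 0 and 0 FPKM in LZy24, against 0, 19.9 and 26.0 FPKM in CZy24) were lower at both hours but at 0 in CZy24 replicate 1, as was AT1G21940 (0, 0 and 0 FPKM in LZy24, against 0, 16.0 and 17.4 FPKM in CZy24). AT1G10330 and AT3G28320 completed the list at -2.67 and -2.95. Calls at 24 hours were lost for UGT74E2 without CZy24 replicate 2 or 3 (adjusted p 0.0674 and 0.068), for ERF71 without any 1 of LZy24 replicates 1 and 3 and CZy24 replicates 2 and 3 (0.103 to 0.171), and for AT1G21940 without any 1 library but CZy24 replicate 1 (0.061 to 0.127). Without LZy14 replicate 3, 10 of these 12 genes were still called at 14 hours, the exceptions being UGT74E2 and ERF71. The largest change between the hours was that of AGL102, at 0, 0 and 0 FPKM in LZy14 and 14.2, 14.9 and 9.47 FPKM in CZy14, a difference of -3.77 that changed by 9.48. AT1G11220, AT4G09060 and AT5G58480 followed, at changes of 7.82, 7.66 and 6.87.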

How the data were processed

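RNA was captured on oligo(dT) beads from isolated cells and amplified with a SMART-Seq v4 kit, per the labels' protocols. The authors deposited 1 table of FPKM values per library. TopHat2, RSEM and the TAIR10 build are named in the submitters' processing notes, without versions. Both parents' reads were therefore set against a Col build, and the effect of this on Ler alleles was not tested. Gene products came from RefSeq, which held 24499 of 24607 listed loci. The test kept genes that reached 1 FPKM in 3 or more of the 18 zygote libraries, and log2(FPKM + 1) was fitted with limma 3.58.1 in R 4.3.3 (6 groups, trend and robust estimation, no block), with Benjamini-Hochberg adjustment over 18815 genes. A pseudocount of 1 understates differences of low genes. A single sum or number was compared by an exact permutation test. Loci like the mitochondrial chromosome were found with blastn 2.17.0. Scripts were tested on simulated data.

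Samples were grouped by their labels. Named genes are the 12 called genes highest and the 12 lowest among those without overlap, up to 4 called members of each list with the largest differences, 8 polarity regulators, the 4 largest changes between the hours and up to 6 genes in each direction called at both hours; others are marked as chosen after their values were seen. The members and lists were chosen with earlier results of these data known. Alternatives covered the pseudocount, the filter, scaling, the libraries in the fit, a replicate block and each library left out. Read depth is known only from steps in low values, so no counting intervals are given. No sequences or coordinates are given, as no genome of the files' build was used here.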

Additional observations from a re-analysis of the deposited data

Results flagged for a closer look

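The results below are set apart because the difference between the crosses, LZy minus CZy, itself changed from 14 to 24 hours by the limma test of that change. The change was called upward in 2259 genes and downward in 1836. Among the 119 genes named by rule it was called in 74, where 21.8% of all genes were called. It was called in 61 of these without LZy14 replicate 3, which is close to a mixture of LZy14 replicates 1 and 2. Without that library 16.4% of all genes were called. Most of the named genes were picked for a large difference at 24 hours, which is part of the change, and some for the change itself. Their count therefore follows from how they were picked. Upward changes of this difference on the log2 scale were 9.48 for AGL102, 7.82 for AT1G11220, 7.66 for AT4G09060, 6.87 for AT5G58480, 6.75 for ENODL3, 6.73 for AT2G38160, 6.66 for AT3G03130, 6.44 for AT1G67035 and 6.38 for AT2G23530. The next were 6.37 for AT3G12460, 6.03 for AT1G54930, 6.01 for AT1G14470, 5.58 for AT3G12870, 5.22 for AT1G52930, 4.86 for ROPGEF6, 4.68 for AT1G73400, 4.24 for AUR2 and 4.17 for AT4G26170. Then came 4.0 for AT3G15460, 3.98 for AT3G22670, 3.87 for AT3G06180, 3.77 for AT1G03780, 3.58 for HAN, 3.29 for AT1G47340, 3.13 for AT2G16870, 3.11 for AGO10 and 2.86 for BDL. Those that followed were 2.81 for AT4G22380, 2.55 for AT1G10780, 2.54 for AGL16, 2.5 for BASL, 2.48 for ROS1, 2.45 for PHB, 2.20 for KAN1, 2.12 for LCR68 and 1.99 for AT5G27120. The smallest were 1.93 for LCR61, 1.78 for PSBR and 1.45 for RPM1. Downward changes, smallest first, were -1.19 for NUC-L2, -1.37 for CLF, -1.45 for VAL1, -1.67 for TTR1, -1.82 for SBT4.13, -1.85 for DCP2, -1.90 for MAF3, -2.01 for AT2G32210 and -2.16 for RKD4. Larger ones were -2.19 for AT2G07734, -2.5 for ZAT12, -2.59 for MPK3, -2.68 for AT3G14470, -2.97 for AT2G07741, -3.05 for EXLA1, -3.09 for MUM4, -3.24 for YUC4 and -3.27 for LHCB2.1. Those that followed were -3.43 for MCM7, -3.61 for HTA11, -3.62 for AT3G46080, -3.84 for PCNA1, -4.04 for AT3G05860, -4.06 for AT3G05932, -4.24 for AT3G51171, -4.36 for GEX1 and -4.48 for SCL5. The largest were -4.74 for AT1G80470, -4.78 for MCM5, -4.79 for AT2G14247, -4.97 for AT2G41730, -5.09 for GSTU9, -5.30 for AOX1A, -5.41 for AT1G30060 and -6.01 for AGL67. Groups of 3 libraries were not tested for a single library standing apart.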

How the results depend on the processing

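The number of genes higher in LZy24 was 1270 with a pseudocount of 5, and 1619 to 2002 with 1 library left out. The number lower was 1621 to 2217 with 1 library left out. With a pseudocount of 5, 2684 of the 4340 genes called were still called in the same direction. With median-of-ratios scaling 2457 were higher and 1818 lower, so that 57.5% of calls were higher against 49.9% as reported. The number of genes called at 14 hours was 1267 without LZy14 replicate 3, an alternative chosen after seeing the data. Loci like the mitochondrial chromosome that were lower numbered 12 with a filter of FPKM at least 5. The difference in the number of genes detected was -64 at a threshold of FPKM 5, the opposite direction. Genes present in 1 cross alone numbered 114 in LZy24 and 27 in CZy24 with limits of 5 and 0, and 100 and 22 with limits of 10 and 1; for CZy24, leaving out 1 library gave between 83 and 224. The cause was not tested in any of these. Same-numbered libraries of the crosses had deviations correlated at 0.058, 0.058 and -0.025, so no strong shift shared by number was seen. Whether the libraries were made in numbered pairs is not stated and cannot be settled from this. With a replicate block 2103 were higher and 2075 lower, against 2125 and 2156 for the same 6 libraries without it. None of the 119 named genes reversed under any alternative run.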

Other observations

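A group of genes of the mitochondrial stress response was put together after their values were seen, so its counts are a description. Of 10 tested, 6 were lower and none higher in LZy24, with a median log2 difference of -2.37, against 23.1% called and a median of 0.00 over all genes. The summed level was 49.4, 120.9 and 62.2 FPKM in LZy24, against 120.0, 949 and 1084 FPKM in CZy24. CZy24 replicate 1 was thus close to the highest LZy24 library. Without CZy24 replicate 2 or 3, 2 were lower, and without LZy24 replicate 1, 3 were.

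Genes of the low oxygen response, gathered in the same way, held 1 higher and 4 lower of 11, 45.5% called against 23.1% of all genes, with a median of 0.26. Their sums were 133, 204 and 152 FPKM in LZy24, against 119, 1009 and 1207 FPKM in CZy24, so CZy24 replicate 1 was below every LZy24 library and the other CZy24 libraries far above. Without LZy24 replicate 2, LZy24 replicate 3 or CZy24 replicate 1 none was higher, and without CZy24 replicate 2 or 3, 1 was lower. These libraries did not stand apart in the same way for the loci like the mitochondrial chromosome, whose sums were 421, 416 and 577 FPKM in CZy24.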
